A study of Mus musculus with 11 samples.

Results

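The 10 genes described here encode parts of the endoplasmic reticulum (ER) stress response and of the programme of the transcription factor ATF4. They were taken by symbol (Herpud1, Atf4, Ddit3, Trib3, Asns, Chac1, Xbp1, Atf6, Sesn2 and Psat1) from a table of 54532 genes, and all 10 were counted highly enough to be tested among 14862 genes. Ddit3 has a second row in the table, for a 105-base gene inside its own locus that had 0 counts in every library and was not used. The 11 libraries were made from RNA of whole hearts, all from C57BL/6 mice at the 26 weeks the labels give as time. Of these, 4 came from hearts with the treatment HFD+STZ+AAV METTL3 (called METTL3), 4 from HFD+STZ hearts and 3 from Chow hearts. HFD and STZ commonly denote a high-fat diet and streptozotocin, which kills pancreatic beta cells, and AAV an adeno-associated virus used to deliver a gene. METTL3 is the RNA methyltransferase best known for marking adenosines of mRNA. The labels spell out none of these letters, and they name neither the promoter that drives METTL3 nor any virus given to the HFD+STZ or Chow mice.

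Proteins that fail to fold in the ER are sensed by 3 membrane proteins, ATF6, IRE1 and PERK. ATF6 is cut in the Golgi to release a transcription factor, IRE1 splices Xbp1 mRNA into the form that encodes an active factor, and PERK phosphorylates the translation factor eIF2alpha. That phosphorylation lowers protein synthesis in general while favouring translation of ATF4, so ATF4 activity can change without its mRNA doing so. Other eIF2alpha kinases respond to amino acid shortage, haem shortage and double-stranded RNA and feed into ATF4 as well, an arm known as the integrated stress response. In heart muscle these pathways are studied in pressure overload, ischaemia and diabetes. Gene-level counts show neither Xbp1 splicing, nor ATF6 cleavage, nor translation of Atf4.

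Total counts were 13900531 to 16952639 per library. Mitochondrial genes took 37.7% to 45.5% of counts in METTL3 libraries, 28.6% to 32.5% in HFD+STZ libraries and 9.28% to 27.4% in Chow libraries. Chow 3 stood apart from the rest, with the lowest of these shares and 15734 genes detected, against 20672 and 20769 in the other Chow libraries. The 7 cardiomyocyte markers were detected in every library, with summed levels of 31209 to 34630, 27734 to 40256 and 33152 to 35446 CPM (counts per 1000000, with library sizes scaled by TMM) in METTL3, HFD+STZ and Chow hearts. Mettl3 itself averaged 8.39 ± 2.19 CPM in METTL3 hearts, 6.35 ± 1.58 CPM in HFD+STZ hearts and 6.11 ± 2.67 CPM in Chow hearts (SD, n = 4, 4 and 3). Its log2 fold change in METTL3 over HFD+STZ was 0.40 (SE 0.32, edgeR Benjamini-Hochberg adjusted p = 0.759), so a rise of Mettl3 counts was not detectable. The labels do not give the species or form of the delivered METTL3, so whether its reads are counted under mouse Mettl3 is not known, and directions for the METTL3 group rest on its label.

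Of the 10 genes, Herpud1 was the 1 that passed the test (edgeR's quasi-likelihood test, adjusted p under 0.05 after Benjamini-Hochberg adjustment over all genes tested). It rose 2.65-fold in METTL3 hearts over Chow hearts, where 3.2% of all genes tested passed. The shares of all genes were 0.168% in HFD+STZ over Chow and 0% in METTL3 over HFD+STZ. In HFD+STZ hearts it was 2.80-fold the Chow level with an adjusted p of 0.05001, just outside the threshold. The genes most often read as the ATF4 branch (Atf4, Ddit3, Trib3, Chac1, Asns) did not pass in any comparison by this test, and Ddit3, which encodes CHOP, had a negative fold change against Chow in both groups. Between METTL3 and HFD+STZ hearts no gene of the 10 passed, and every log2 fold change lay between -0.28 and 0.38.

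HERPUD1 is an ER membrane protein that helps assemble the complex that extracts misfolded proteins for degradation. Its gene (ENSMUSG00000031770) lies on chromosome 8 at 94386438 to 94395377 on the plus strand (mm10 coordinates, as in the deposited table). Its promoter is shown here because it holds recognition motifs of both branches of the response. These are the CARE, the element bound by ATF4 with a C/EBP partner, and the ERSE-II, an element of ATF6 and XBP1. Sequences come from RefSeq (GRCm38.p6, the assembly of mm10), in a window from 250 bases before to 50 bases after the annotated start, and run 5′ to 3′ on the gene's strand. The Herpud1 stretch covers chr8:94386305-94386399 on the plus strand. Capitals mark first the CARE, read on the opposite strand, at positions -112 to -105 (94386317 to 94386324), then the ERSE-II at -52 to -42 (94386377 to 94386387). Positions count from the RefSeq start (the start base is 0), which differs from the gene start in the deposited table.
Herpud1: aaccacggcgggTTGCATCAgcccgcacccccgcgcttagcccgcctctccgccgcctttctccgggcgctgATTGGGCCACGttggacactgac

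Motifs were searched on both strands as exact letters. They were TGATGNAA for the CARE, CCAAT and CCACG with any 9 bases between them for the ERSE, ATTGG and CCACG with any 1 base between them for the ERSE-II, and TGACGTGG for the UPRE, another XBP1 and ATF6 element. Of 32851 promoters of this length, 3.97% held a CARE, 0.119% an ERSE, 0.0365% an ERSE-II and 0.676% a UPRE. Among the 9 genes with a promoter in the RefSeq table, 4 held a CARE (Herpud1, Chac1, Asns and Trib3) and 1 an ERSE-II (Herpud1), while no ERSE or UPRE was matched. The following stretches show the CARE of the other genes in capitals, so that their letters can be set beside Herpud1. Below them is the ERSE of Hspa5, the chaperone BiP, whose promoter is a textbook case of that element. They cover chr2:119351037-119351068 (plus strand) for Chac1, chr6:7693214-7693243 (minus strand) for Asns, chr2:152344028-152344057 (minus strand) for Trib3 and chr2:34772020-34772048 (plus strand) for Hspa5. The Asns and Hspa5 stretches fall in annotated exons of the GENCODE M21 models, and the Trib3 match lies at positions 14 to 21 after the RefSeq start.
Chac1: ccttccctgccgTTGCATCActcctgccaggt
Asns: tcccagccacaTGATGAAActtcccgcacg
Trib3: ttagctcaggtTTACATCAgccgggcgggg
Hspa5: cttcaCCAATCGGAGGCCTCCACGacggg

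The Herpud1 and Chac1 matches have the same 8 letters. A match in this window is a description of the sequence, not evidence that a factor binds there in heart. Of 12 genes with an ERSE-II, 9 were tested, and their log2 fold changes in HFD+STZ over Chow were positive for 3 and negative for 6, with a median of -0.11. In METTL3 over Chow they were positive for 5 and negative for 4, with a median of 0.33, and in METTL3 over HFD+STZ positive for 6 and negative for 3, with a median of 0.22. Herpud1 had the highest value of the 9 in both comparisons with Chow. Of 297 tested genes with a CARE, 7 were higher and 7 lower past the edgeR threshold in METTL3 over Chow, where 3.2% of all genes passed. In HFD+STZ over Chow 2 were higher and 0 lower, where 0.168% of all genes passed. The CARE medians were 0.05 and -0.01 in these comparisons, against -0.01 and -0.02 over all genes tested.

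Herpud1 had 377, 332, 499 and 369 CPM in the 4 METTL3 libraries and 237, 492, 538 and 404 CPM in the 4 HFD+STZ libraries, against 164, 156 and 127 CPM in the 3 Chow libraries. Every METTL3 and HFD+STZ library was above every Chow library, and HFD+STZ 1 was the nearest to Chow. TMM scaling corrects library sizes for differences in composition. The means were 394 ± 72.6 CPM, 418 ± 132 CPM and 149 ± 19.2 CPM in METTL3, HFD+STZ and Chow hearts (SD, n = 4, 4 and 3). In whole tissue, fewer cells of a type and less RNA per cell cannot be told apart. The log2 fold change was 1.40 (SE 0.27, 95% interval 0.82 to 1.99, edgeR Benjamini-Hochberg adjusted p = 0.0250) in METTL3 over Chow. For HFD+STZ over Chow it was 1.49 (SE 0.27, interval 0.90 to 2.07), with an unadjusted p of 0.000104 in the edgeR test across all genes. Both comparisons use the same 3 Chow libraries. Over HFD+STZ, METTL3 hearts had a log2 fold change of -0.08 (SE 0.24, interval -0.60 to 0.43, edgeR adjusted p = 0.955), and the libraries overlapped.

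**Figure D1:**
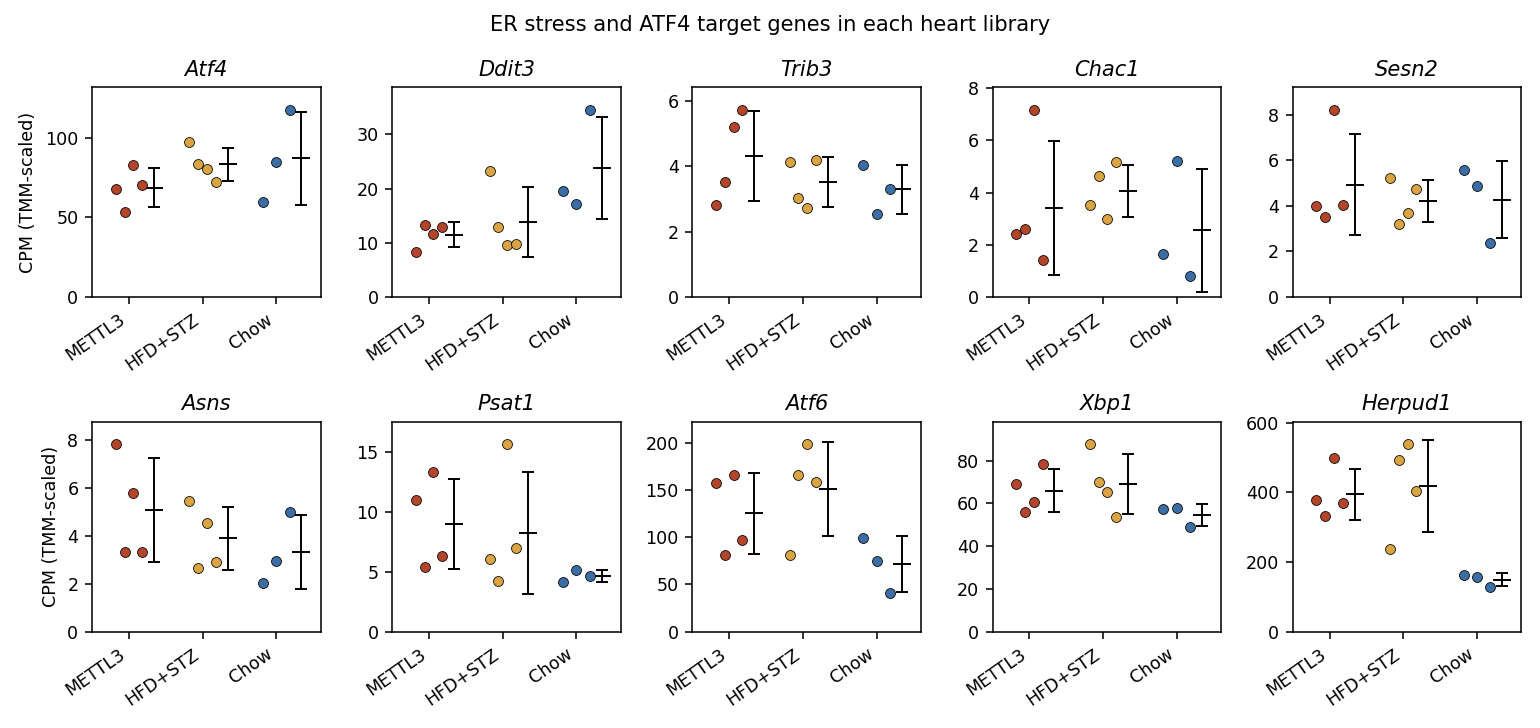
Level of each gene in every library, in TMM-scaled CPM on linear axes that start at 0; points are libraries of METTL3, HFD+STZ and Chow hearts, and bars give the mean ± SD beside them. For Herpud1 the 8 METTL3 and HFD+STZ libraries lie between 237 and 538 CPM, all above the 3 Chow libraries.

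The position of Herpud1 relative to the threshold moved with single libraries. The METTL3 over Chow call was lost without METTL3 1 (adjusted p = 0.0606 by edgeR), without METTL3 3 (adjusted p = 0.0723), without METTL3 4 (adjusted p = 0.0721) and without Chow 2 (adjusted p = 0.0718), while the log2 fold change in those fits stayed between 1.27 and 1.44. For HFD+STZ over Chow the threshold was passed without HFD+STZ 1 (log2 fold change 1.68, edgeR adjusted p = 0.00427) and without Chow 3 (1.39, adjusted p = 0.0440). Sample codes fall into 2 ranges, 25 to 33 and 78 to 98, and all Chow libraries are in 78 to 98. Within 78 to 98, the single METTL3 library had 369 CPM and the single HFD+STZ library 237 CPM, both above the Chow libraries. With the code range in the model the Herpud1 log2 fold change was 1.01 in METTL3 over Chow (edgeR adjusted p = 0.174) and 1.04 in HFD+STZ over Chow (edgeR adjusted p = 0.713). The labels do not say what the codes mean. Mitochondrial share moved with the groups, and with nuclear genes alone the log2 fold changes were 1.39 and 1.48 (edgeR adjusted p = 0.0265 and 0.0497). That fit only leaves out the mitochondrial counts, and what else differs along with the mitochondrial share was not tested.

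**Figure D2:**
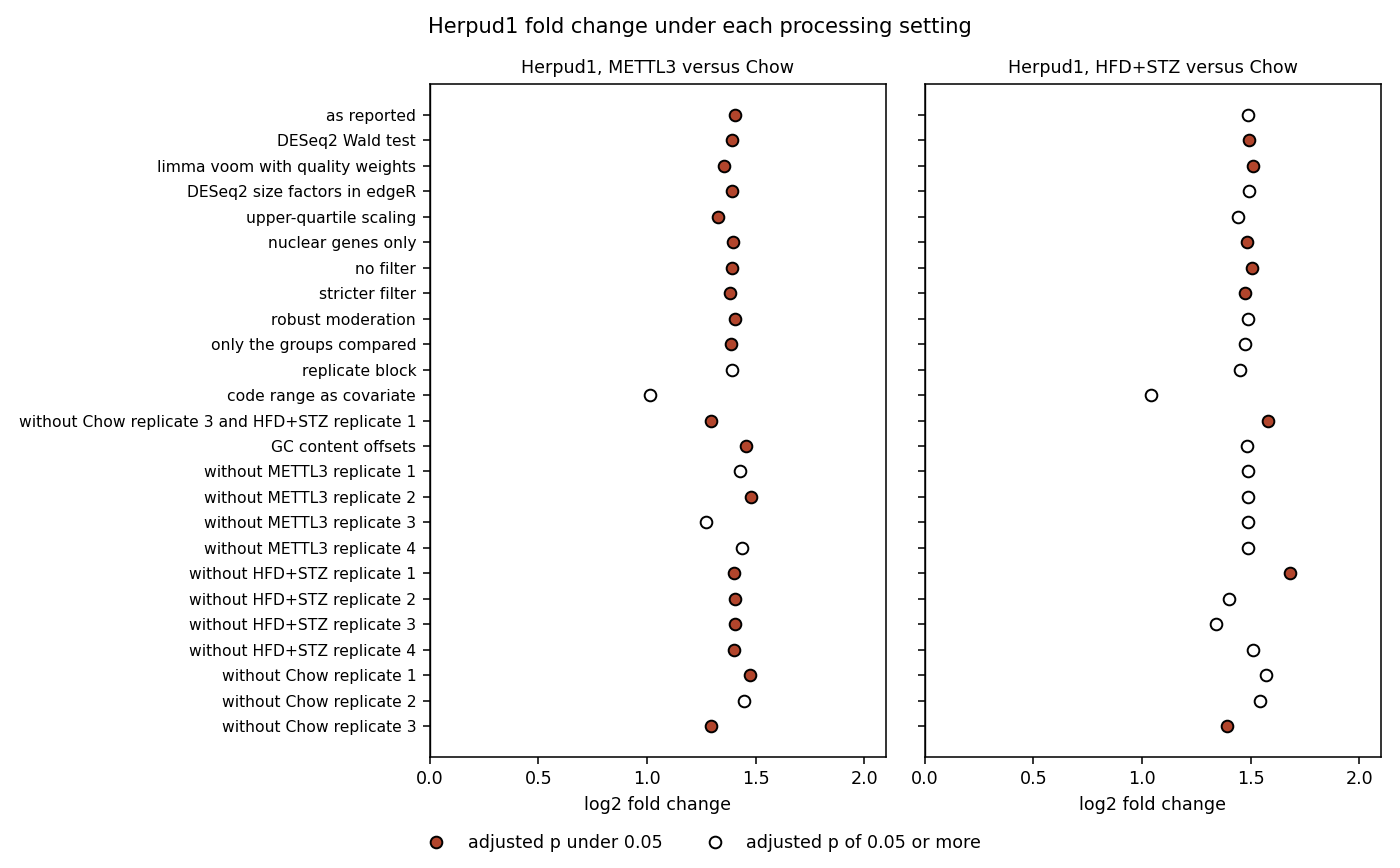
Log2 fold change of Herpud1 in METTL3 over Chow (left) and HFD+STZ over Chow (right) under each processing setting or with libraries left out; filled points have an adjusted p under 0.05. All values are positive, from 1.01 to 1.48 on the left and from 1.04 to 1.68 on the right, and fewer are filled on the right.

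Atf6 encodes the sensor and factor of the ATF6 branch (ENSMUSG00000026663, chromosome 1, 170704674 to 170867771, minus strand). It had 157, 81.1, 166 and 96.9 CPM in METTL3 hearts and 81.5, 165, 198 and 159 CPM in HFD+STZ hearts, against 98.9, 75.1 and 40.9 CPM in Chow hearts. The groups overlapped, since METTL3 2, METTL3 4 and HFD+STZ 1 lay below Chow 1. The log2 fold change was 1.08 (SE 0.37, edgeR Benjamini-Hochberg adjusted p = 0.304) in HFD+STZ over Chow and 0.81 (SE 0.36, adjusted p = 0.217) in METTL3 over Chow. The lowest value was that of Chow 3, and without it these log2 fold changes were 0.80 and 0.52 (edgeR adjusted p = 0.438 and 0.382). In METTL3 over HFD+STZ it was -0.27 (SE 0.33, edgeR adjusted p = 0.856). Limma voom put Atf6 past the threshold in METTL3 over Chow (log2 fold change 0.72, adjusted p = 0.0337) and in HFD+STZ over Chow (1.04, adjusted p = 0.00490).

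Xbp1 encodes the factor activated by IRE1 splicing (ENSMUSG00000020484, chromosome 11, 5520659 to 5525893, plus strand). Its levels were 69.1, 56.2, 60.5 and 78.5 CPM in METTL3 hearts and 87.7, 70.2, 65.4 and 53.8 CPM in HFD+STZ hearts, against 57.4, 57.7 and 48.8 CPM in Chow hearts. It was among the steadiest of the 10 genes, and the groups overlapped. The log2 fold changes were 0.27 (SE 0.19, edgeR adjusted p = 0.432) in METTL3 over Chow and 0.34 (SE 0.19, adjusted p = 0.473) in HFD+STZ over Chow. Spliced and unspliced Xbp1 are counted together here.

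Atf4, the factor at the centre of the integrated stress response, lies on chromosome 15 at 80255184 to 80257541 (ENSMUSG00000042406, plus strand). Its levels were 67.8, 53.2, 82.9 and 70.6 CPM in METTL3 hearts and 97.2, 83.5, 80.2 and 72.1 CPM in HFD+STZ hearts, against 59.5, 84.6 and 118 CPM in Chow hearts. The groups overlapped. Chow 3 was the highest of all libraries, and METTL3 2 alone lay below Chow 1. The log2 fold change was -0.35 (SE 0.23, interval -0.84 to 0.15) in METTL3 over Chow, -0.07 (SE 0.23, interval -0.56 to 0.43) in HFD+STZ over Chow and -0.28 (SE 0.21, interval -0.74 to 0.18) in METTL3 over HFD+STZ. None passed, with edgeR Benjamini-Hochberg adjusted p of 0.400, 0.921 and 0.739 in that order.

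Ddit3 encodes CHOP, a transcription factor downstream of ATF4 that is associated with cell death under prolonged ER stress (ENSMUSG00000025408, chromosome 10, 127290774 to 127296288, plus strand). It had 8.23, 13.3, 11.7 and 12.9 CPM in METTL3 hearts and 23.3, 12.8, 9.55 and 9.86 CPM in HFD+STZ hearts, against 19.5, 17.2 and 34.6 CPM in Chow hearts. All METTL3 libraries were below all Chow libraries, and HFD+STZ 1 lay within the Chow range. The log2 fold change was -1.04 (SE 0.34, interval -1.77 to -0.32, edgeR Benjamini-Hochberg adjusted p = 0.103) in METTL3 over Chow. In HFD+STZ over Chow it was -0.77 (SE 0.33, interval -1.49 to -0.05, edgeR adjusted p = 0.389). Leaving out Chow 3 gave -0.68 and -0.39 for these comparisons (edgeR adjusted p = 0.219 and 0.772), and leaving out HFD+STZ 1 gave -1.05 and -1.14 (0.0537 and 0.0859). DESeq2 put Ddit3 past the threshold in METTL3 over Chow (adjusted p = 0.0425), as did limma voom (0.0329) and edgeR without a filter on low counts (0.0367).

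Summed markers of macrophages, of B and plasma cells and of adipocytes were, like Ddit3, lower in METTL3 than in Chow hearts. All 6 macrophage markers were detected in every library, all 6 had negative log2 fold changes in METTL3 over Chow, of which 2 passed the test, and their summed level was 135 to 263 CPM in METTL3 hearts, 203 to 502 CPM in HFD+STZ hearts and 352 to 699 CPM in Chow hearts. The 6 B and plasma cell markers summed to 7.02 to 8.46 CPM in METTL3 hearts, 8.27 to 11.1 CPM in HFD+STZ hearts and 10.4 to 11.9 CPM in Chow hearts, and 4 of 5 tested had negative log2 fold changes in METTL3 over Chow, with 0 past the edgeR threshold. The 5 adipocyte markers summed to 0.0783 to 1.06 CPM in METTL3 hearts, 0.182 to 5.19 CPM in HFD+STZ hearts, highest in HFD+STZ 1, and 3.60 to 10.6 CPM in Chow hearts. Only 2 adipocyte markers could be tested, both had negative log2 fold changes there, and 0 passed, while 1 to 4 of the 5 were at 0 in each METTL3 library. The B and plasma cell sum was also highest in HFD+STZ 1 within its group. The macrophage sum was instead highest in HFD+STZ 3 (502 CPM), the library of its group with the lowest Ddit3 (9.55 CPM). The part of these cells in the Ddit3 values was not tested.

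Trib3, Chac1 and Sesn2 are stress targets of ATF4. TRIB3 is a pseudokinase that binds ATF4 and CHOP, CHAC1 breaks down glutathione, and SESN2 is a leucine sensor that restrains the growth kinase mTORC1. Counts were low for all 3, with 36 to 78 counts per library for Trib3, 14 to 97 for Chac1 and 42 to 109 for Sesn2.

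Trib3 (ENSMUSG00000032715) had 2.82, 3.51, 5.21 and 5.73 CPM in METTL3 hearts and 4.13, 3.04, 2.72 and 4.20 CPM in HFD+STZ hearts, against 4.04, 2.53 and 3.32 CPM in Chow hearts. Chac1 (ENSMUSG00000027313) had 2.43, 2.59, 7.17 and 1.43 CPM in METTL3 hearts and 3.52, 4.62, 2.997 and 5.17 CPM in HFD+STZ hearts, against 1.66, 5.21 and 0.788 CPM in Chow hearts. Sesn2 (ENSMUSG00000028893) had 3.996, 3.51, 8.23 and 4.03 CPM in METTL3 hearts and 5.25, 3.22, 3.69 and 4.75 CPM in HFD+STZ hearts, against 5.60, 4.89 and 2.36 CPM in Chow hearts. The groups overlapped for all 3, and METTL3 3 was the highest library for both Chac1 and Sesn2. Chac1 was the least precise of the 10, with a log2 fold change of 0.67 (SE 0.62) in HFD+STZ over Chow and an interval from -0.66 to 2.01. Log2 fold changes in METTL3 over Chow were 0.39 (SE 0.34) for Trib3, 0.42 (SE 0.62) for Chac1 and 0.21 (SE 0.38) for Sesn2, with edgeR adjusted p of 0.541, 0.746 and 0.802.

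Asns and Psat1 are enzymes of amino acid synthesis that ATF4 is known to induce. ASNS makes asparagine and PSAT1 catalyses the second step of serine synthesis. Asns (ENSMUSG00000029752) had 7.83, 3.34, 5.81 and 3.32 CPM in METTL3 hearts and 5.47, 2.68, 4.53 and 2.92 CPM in HFD+STZ hearts, against 2.02, 2.96 and 5.01 CPM in Chow hearts. Psat1 (ENSMUSG00000024640, chromosome 19, 15904678 to 15947337, minus strand) had 10.97, 5.35, 13.3 and 6.27 CPM in METTL3 hearts and 6.03, 4.26, 15.6 and 7.0 CPM in HFD+STZ hearts, against 4.15, 5.11 and 4.67 CPM in Chow hearts. All METTL3 libraries were above all Chow libraries for Psat1, though METTL3 2 cleared Chow 2 by little, while Asns overlapped in each comparison. Psat1 had a log2 fold change of 0.95 (SE 0.44, edgeR Benjamini-Hochberg adjusted p = 0.226) in METTL3 over Chow and of 0.82 (SE 0.43, adjusted p = 0.450) in HFD+STZ over Chow. For Asns the values were 0.61 (SE 0.43, edgeR adjusted p = 0.431) and 0.23 (SE 0.42, adjusted p = 0.843). Limma voom put Asns past the threshold in METTL3 over Chow, with a log2 fold change of 0.92 (adjusted p = 0.0491).

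**Figure D3:**
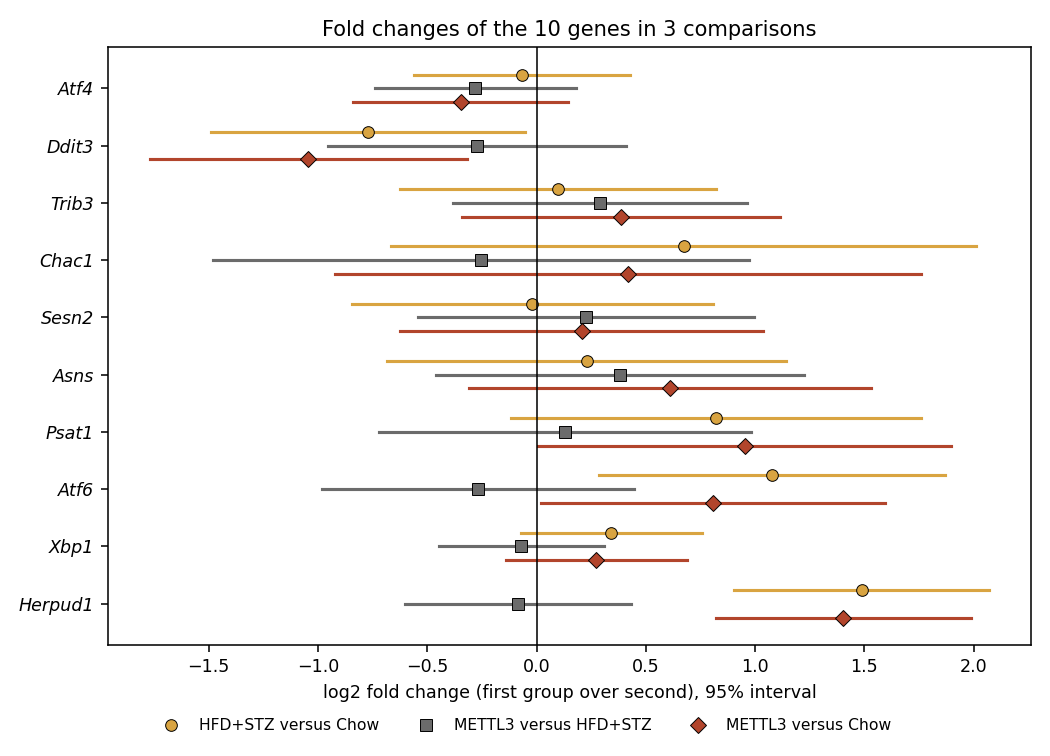
Log2 fold change of each gene in the 3 comparisons, with the first-named group over the second; lines are 95% intervals. The values run from Herpud1 to Ddit3, at 1.40 and -1.04 in METTL3 versus Chow and 1.49 and -0.77 in HFD+STZ versus Chow, and for METTL3 versus HFD+STZ every interval includes 0.

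In METTL3 over Chow, 1 gene of the 10 passed the test, where 3.2% of all genes tested did. At an unadjusted p under 0.05, 4 of the 10 were counted by edgeR, beside 21.7% of all genes. DESeq2 put 2 past the adjusted threshold (Herpud1 and Ddit3), beside 10.2% of all genes with an adjusted p, and limma voom 4 (Herpud1, Ddit3, Atf6 and Asns), beside 20.7% of all genes. Groups did not overlap for 3 of the 10 (Herpud1 and Psat1 above Chow, Ddit3 below), where 18.7% of all genes did not. In HFD+STZ over Chow, 0 of the 10 passed, beside 0.168% of all genes. At an unadjusted p under 0.05, 3 of the 10 were counted by edgeR, beside 12.1% of all genes. DESeq2 put 1 past the adjusted threshold (Herpud1), beside 2.07% of all genes, and limma voom 3 (Herpud1, Atf6 and Ddit3), beside 13.1%. Groups did not overlap for 1 of the 10, beside 10.4% of all genes. In METTL3 over HFD+STZ, 0 of the 10 passed in edgeR, DESeq2 or limma voom, and 0 had an unadjusted edgeR p under 0.05, beside 0% of all genes past the adjusted threshold in edgeR, 1.29% in DESeq2, 2.66% in limma voom and 9.06% with an unadjusted edgeR p under 0.05. No gene of the 10 had groups that did not overlap there, beside 9.57% of all genes. The median log2 fold change over the 10 genes was 0.40 in METTL3 over Chow, 0.29 in HFD+STZ over Chow and -0.08 in METTL3 over HFD+STZ, against -0.01, -0.02 and -0.00 over all genes tested.

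Per kilobase of gene length, the 10 genes fell into a higher and a lower set. Over the 11 libraries, Herpud1 averaged 144 ± 62.8 CPM per kilobase, above 98.3% of all genes tested. Atf4 averaged 33.5 ± 7.57, Xbp1 19.7 ± 3.55, Atf6 13.0 ± 5.47 and Ddit3 9.18 ± 4.51 CPM per kilobase, and the ranges of mean ± SD overlapped between Xbp1 and Atf6 and between Atf6 and Ddit3 but not between the other neighbours in this order. The order of Atf6 and Ddit3 differed by group, at 13.6 and 6.73 CPM per kilobase in METTL3 hearts and 16.4 and 8.11 in HFD+STZ hearts, whereas in Chow hearts Ddit3 was above Atf6, which stood at 7.76. The other 5 genes lay close together, at 2.09 ± 1.19 for Chac1, 1.77 ± 0.927 for Psat1, 1.76 ± 0.486 for Trib3, 1.53 ± 0.633 for Asns and 1.30 ± 0.448 CPM per kilobase for Sesn2. Their levels did not differ beyond their spread.

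The genes did not move as a block across libraries. Over the 11 libraries, log2 CPM of Herpud1 and Atf6 ran together (Pearson r 0.87, Spearman rho 0.94), also after group means were removed (r 0.85). Ddit3 ran opposite to both, with r -0.84 against Herpud1 and -0.88 against Atf6. Atf4 and Herpud1 had r -0.29. Asns and Psat1 had r 0.65, and Psat1 had r 0.64 with Atf6 and also with Herpud1. Among Trib3, Chac1, Sesn2, Asns and Psat1, the other pairs ran from -0.06 (Trib3 and Asns) to 0.62 (Chac1 and Sesn2). Atf4 itself had r 0.37 with Asns and -0.01 with Psat1. HFD+STZ 1 and Chow 3 were each the lowest of their group in Herpud1 and Atf6 and the highest in Ddit3. HFD+STZ 1 also had the lowest summed cardiomyocyte markers of its group (27734 CPM, against 36769 to 40256 CPM in the other HFD+STZ libraries) and the highest fibroblast markers (6 of 6 detected, 1836 CPM against 749 to 952 CPM). Fibroblast markers summed to 1041 to 1677 CPM in METTL3 hearts and 1129 to 1494 CPM in Chow hearts, with Chow 3 highest on chow. Unlike HFD+STZ 1, Chow 3 had the highest cardiomyocyte markers of its group (35446 CPM, against 33152 and 34212 CPM). METTL3 3 had the lowest cardiomyocyte markers (31209 CPM) and the highest fibroblast markers (1677 CPM) of its group. It was also the highest METTL3 library for Herpud1 (499 CPM) and Atf6 (166 CPM). The part of these cell types in these values was not tested. All of these correlations are descriptions over libraries that share groups, depth and preparation.

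**Figure D4:**
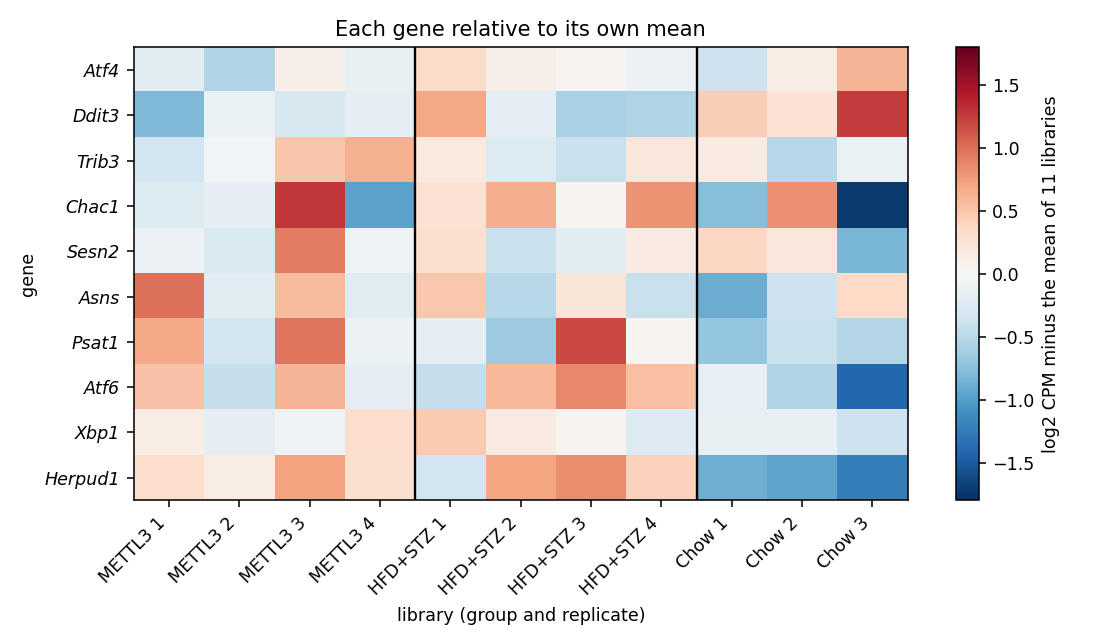
Each gene's log2 CPM in a library minus its mean over the 11 libraries, with METTL3, HFD+STZ and Chow libraries from left to right; red is above and blue below the gene's mean. Herpud1 is below its mean in all Chow libraries and in HFD+STZ 1, and Ddit3 is above its mean in the same 4 libraries.

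Among 13057 tested genes with an established symbol, those whose log2 CPM ran most like Herpud1 over the 11 libraries were Cdc37l1 (r 0.98), Cited2 (r 0.98), Uhrf1bp1l (r 0.98), Plin5 (r 0.97) and Spock2 (r 0.97). For Atf4 they included Akip1 (r 0.92), Ext2 (r 0.89), Fuom (r 0.88) and Clta (r 0.88). No other gene of the 10 was among those named.

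Beyond the 10 genes, 122 further genes of these pathways were tested, in 7 lists. In METTL3 over Chow, 5 of the 122 passed the test, beside 3.2% of all genes. In HFD+STZ over Chow 1 passed, beside 0.168%. In METTL3 over HFD+STZ edgeR called 0, while DESeq2 and limma voom each called 1 (Os9, an ER lectin of the degradation pathway). The shares of all genes there were 0% in edgeR, 1.29% in DESeq2 and 2.66% in limma voom. An unadjusted edgeR p under 0.05 was found for 8 of the 122, beside 9.06% of all genes. Leaving out single libraries moved the count in METTL3 over Chow between 0 and 7. It was 0 without METTL3 1, METTL3 3, METTL3 4 or Chow 2, it was 1 without HFD+STZ 2, HFD+STZ 3 or HFD+STZ 4 and 2 without METTL3 2. The count in HFD+STZ over Chow was 0 without METTL3 1, METTL3 3, METTL3 4, HFD+STZ 2, HFD+STZ 3, HFD+STZ 4, Chow 1 or Chow 2, it was 2 without Chow 3, and 5 without HFD+STZ 1.

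None of the 16 sensors and eIF2alpha regulators passed in any comparison by edgeR or DESeq2, while limma voom called 5 of them in METTL3 over Chow, beside 20.7% of all genes. Their medians were -0.03 in METTL3 over Chow, 0.06 in HFD+STZ over Chow and -0.04 in METTL3 over HFD+STZ, and their unadjusted edgeR p was under 0.05 for 3, 0 and 1 of them, beside 21.7%, 12.1% and 9.06% of all genes. The lowest p-values against Chow included Eif2ak4, the amino acid sensor kinase GCN2 (log2 fold change 0.77 in METTL3 and 0.51 in HFD+STZ, edgeR adjusted p = 0.145 and 0.471), and in HFD+STZ Oma1, the mitochondrial protease that relays stress to ATF4 (0.33, edgeR adjusted p = 0.425). Ern1, which encodes IRE1, had log2 fold changes of 0.02 and 0.04 over Chow in METTL3 and HFD+STZ hearts, and Eif2ak3, which encodes PERK, of 0.12 and 0.24. Ern1, Eif2ak3 and the chaperones Hspa5 and Dnajb9 were singled out after their values were seen.

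Of 23 ER chaperones and folding enzymes, 2 fell in METTL3 over Chow and 0 rose, where 3.2% of all genes passed. They were Fkbp2, a prolyl isomerase (log2 fold change -2.14, edgeR adjusted p = 0.0453), and Creld2, an ER stress-inducible protein (-1.18, edgeR adjusted p = 0.0465). Fkbp2 had 4.47, 5.35, 3.40 and 3.67 CPM in METTL3 hearts against 7.98, 7.04 and 40.9 CPM in Chow hearts, and Creld2 had 6.19, 4.26, 5.89 and 7.17 CPM against 9.90, 9.73 and 20.3 CPM. Chow 3 was the highest library for both, and neither was called without it. At an unadjusted edgeR p under 0.05, 3 of the 23 were higher and 6 lower in METTL3 over Chow, beside 21.7% of all genes. The list's median was -0.31 in METTL3 over Chow, -0.22 in HFD+STZ over Chow and 0.08 in METTL3 over HFD+STZ. Chow 3 was also the highest Chow library for the chaperone Hsp90b1 (309 CPM, against 153 and 155 CPM). The same held for Hspa5 but not for Dnajb9. The list's medians were not computed without Chow 3.

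The chaperone BiP (Hspa5), a common readout of ER stress, had 481, 343, 457 and 574 CPM in METTL3 hearts and 393, 455, 420 and 405 CPM in HFD+STZ hearts, against 358, 347 and 496 CPM in Chow hearts. The libraries overlapped, with log2 fold changes of 0.21 (SE 0.21, edgeR adjusted p = 0.588) in METTL3 over Chow and 0.06 (SE 0.20, adjusted p = 0.917) in HFD+STZ over Chow. Dnajb9, a co-chaperone that is a target of XBP1, averaged 61.7 ± 12.6, 48.0 ± 4.85 and 39.7 ± 4.25 CPM in METTL3, HFD+STZ and Chow hearts (SD, n = 4, 4 and 3), with a log2 fold change of 0.64 in METTL3 over Chow (SE 0.19, edgeR adjusted p = 0.0761). DESeq2 put Dnajb9 past the threshold in METTL3 over Chow, and limma voom did so for both. Both had smaller fold changes over Chow than Herpud1, a difference between genes that was not tested.

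Of the 18 genes of ER-associated degradation, the process HERPUD1 serves, none passed in edgeR in any comparison. The medians were 0.08 in METTL3 over Chow, 0.23 in HFD+STZ over Chow and -0.02 in METTL3 over HFD+STZ, and 4, 1 and 1 genes had an unadjusted edgeR p under 0.05. The shares of all genes were 21.7%, 12.1% and 9.06%. DESeq2 called 1, 0 and 1 of the 18, beside 10.2%, 2.07% and 1.29% of all genes, and limma voom 4, 1 and 1, beside 20.7%, 13.1% and 2.66%. Ube2g2, a ubiquitin-conjugating enzyme of the pathway, had the smallest p in HFD+STZ over Chow (log2 fold change 0.65, edgeR adjusted p = 0.281). In METTL3 hearts it was Os9, with 22.9, 21.6, 24.7 and 24.7 CPM in METTL3 hearts and 31.8, 36.8, 28.3 and 36.2 CPM in HFD+STZ hearts, against 34.9, 37.6 and 30.6 CPM in Chow hearts. All METTL3 libraries lay below all others for Os9, and its log2 fold changes were -0.55 over Chow (edgeR adjusted p = 0.0691) and -0.50 over HFD+STZ (edgeR adjusted p = 0.353). Groups did not overlap for 18.7% of all genes in METTL3 over Chow and 9.57% in METTL3 over HFD+STZ.

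**Figure D5:**
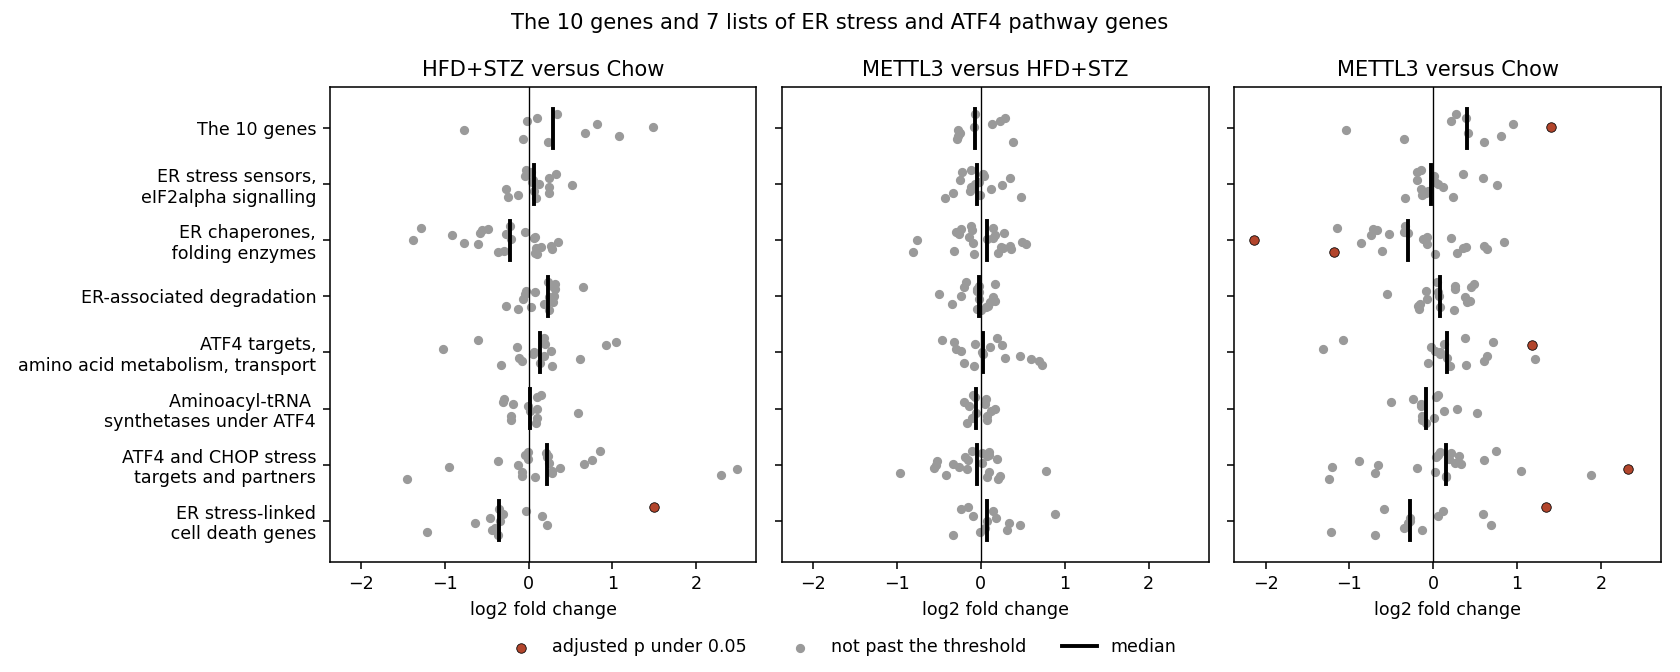
Log2 fold changes of the 10 genes and of 7 lists of related genes in the 3 comparisons; each point is a gene, vertical bars are medians and red points have an adjusted p under 0.05. Red points are 6 genes in METTL3 versus Chow and 1 in HFD+STZ versus Chow, and medians lie between -0.35 and 0.40.

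Of 17 ATF4 targets in amino acid metabolism and transport, 1 rose in METTL3 over Chow and 0 fell, where 3.2% of all genes passed. It was Slc38a2, the amino acid transporter SNAT2, with 426, 219, 485 and 389 CPM in METTL3 hearts and 250, 325, 410 and 291 CPM in HFD+STZ hearts, against 212, 163 and 130 CPM in Chow hearts. METTL3 and HFD+STZ libraries were all above the Chow libraries, with log2 fold changes of 1.17 (SE 0.28, edgeR Benjamini-Hochberg adjusted p = 0.0453) and 0.92 (SE 0.28, adjusted p = 0.243). Groups did not overlap for 18.7% of all genes in METTL3 over Chow and 10.4% in HFD+STZ over Chow. The list's medians were 0.17 in METTL3 over Chow and 0.14 in HFD+STZ over Chow. Of the 13 aminoacyl-tRNA synthetases, which charge tRNAs and are classical ATF4 targets, none passed in any comparison and none had an unadjusted edgeR p under 0.05. Their medians were -0.08, 0.01 and -0.06 in METTL3 over Chow, HFD+STZ over Chow and METTL3 over HFD+STZ. Of all genes, 3.2%, 0.168% and 0% passed in edgeR in that order, and 21.7%, 12.1% and 9.06% had an unadjusted edgeR p under 0.05. DESeq2 and limma voom called no synthetase either. Their shares of all genes were 10.2%, 2.07% and 1.29% for DESeq2 and 20.7%, 13.1% and 2.66% for limma voom.

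Among 22 other ATF4 and CHOP targets and partners, 1 rose in METTL3 over Chow, where 3.2% of all genes passed. It was Ddit4, an inhibitor of mTORC1 that many stresses and glucocorticoids induce, with 89.9, 106, 131 and 132 CPM in METTL3 hearts and 22.9, 198, 157 and 137 CPM in HFD+STZ hearts, against 15.6, 39.0 and 14.2 CPM in Chow hearts. HFD+STZ 1 lay within the Chow range. The log2 fold changes were 2.32 (SE 0.58, edgeR adjusted p = 0.0487) in METTL3 over Chow and 2.49 (SE 0.58, adjusted p = 0.132) in HFD+STZ over Chow. Cdkn1a, the cell cycle inhibitor p21, had 45.2, 44.3, 62.1 and 60.7 CPM in METTL3 hearts and 20.3, 114, 87.1 and 61.5 CPM in HFD+STZ hearts, against 8.29, 13.7 and 21.2 CPM in Chow hearts (edgeR adjusted p = 0.0506 and 0.0838 over Chow). Atf3, a factor induced by ATF4, had the opposite sign. It had 5.17, 5.43, 6.49 and 4.03 CPM in METTL3 hearts and 8.60, 3.34, 2.86 and 3.47 CPM in HFD+STZ hearts, against 9.17, 13.2 and 15.3 CPM in Chow hearts. All 8 libraries were below the Chow libraries, with log2 fold changes of -1.25 and -1.45 (edgeR adjusted p = 0.0783 and 0.152). Of all genes, 18.7% in METTL3 over Chow and 10.4% in HFD+STZ over Chow had groups that did not overlap. Atf3 was also singled out after its values were seen.

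Of 13 cell death genes linked to ER stress, 1 rose in each comparison with Chow, beside 3.2% of all genes in METTL3 and 0.168% in HFD+STZ hearts. It was Txnip, a thioredoxin-binding protein induced by glucose as well as by ER stress. Txnip had 1035, 595, 1014 and 938 CPM in METTL3 hearts and 786, 1122, 1157 and 919 CPM in HFD+STZ hearts, against 327, 317 and 413 CPM in Chow hearts. The groups did not overlap with Chow, which held for 18.7% of all genes in METTL3 and 10.4% in HFD+STZ hearts. The Txnip log2 fold changes were 1.35 (SE 0.24, edgeR adjusted p = 0.0202) and 1.499 (SE 0.24, adjusted p = 0.0309). The medians of the list were -0.27 in METTL3 over Chow and -0.35 in HFD+STZ over Chow, opposite in sign to Txnip.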

How the data were processed

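Counts of 54532 genes in 11 whole-heart libraries were used as deposited by the authors, as whole-number counts per gene. Per the labels' protocols, RNA was extracted with Trizol, depleted with a RiboZero kit and built into libraries with a NEB kit. FastQC, Salmon and the mm10 build appear in the submitters' processing notes. Annotation release, strand setting and treatment of shared reads were not given in the sources used here, so reads of overlapping or antisense genes cannot be told apart. Groups and replicate numbers come from the sample titles. Nothing says that replicates are separate animals, and p-values therefore describe the spread among these libraries, possibly only technical.

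Counts were fitted with edgeR 4.0.16 in R 4.3.3, with TMM scaling, the filterByExpr filter (minimum count 10, minimum total 15), 3 group means over all 11 libraries, and a quasi-likelihood test, adjusted by Benjamini-Hochberg across 14862 genes. The call threshold was an adjusted p under 0.05. Log2 CPM used a prior count of 2. The fit was tested on simulated counts in which 200 genes were changed. A log2 change of 1 was called for 17.2% of changed genes in HFD+STZ over Chow, 17.7% in METTL3 over Chow and 26.8% in METTL3 over HFD+STZ. For a log2 change of 2 these shares were 66.7%, 74.2% and 74%. Of the calls, 3.49%, 2.2% and 5.66% were false. A gene that did not pass may therefore still differ between groups. Alternatives were DESeq2 1.42.0, limma 3.58.1 voom with quality weights, other scalings and filters (stricter minimum count 30), nuclear genes only, robust moderation, a fit of the compared groups alone, replicate number as block, code range as covariate, codes 25 to 33 alone, and leaving out libraries. Chosen after seeing the data were GC content offsets and the count of pathway genes under each alternative.

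The 10 genes and all lists were chosen with earlier results of these data known. Named pathway genes are all those past the threshold, up to 6 a list, or otherwise the 2 smallest p-values, and the text names fewer than this rule gives. Genes running most like a gene are the 5 with the highest Pearson r, of which 1 is not reported here. Depth was 13900531 to 16952639 counts per library, and intervals cover counting error and the modelled spread only. No pair of libraries within a group agreed within sampling noise.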

Additional observations from a re-analysis of the deposited data

Results flagged for a closer look

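In groups of 4 libraries, the gap between the extreme library and its neighbour was divided by the group's range and set against Dixon's 95% critical value. Of 58 gene and group pairs, 4 exceeded it, where chance flags about 1 in 20. Sesn2 was high in METTL3 3, with 8.23 CPM against 4.03 CPM in the next library (ratio 0.889). Hsp90b1, the ER chaperone GRP94, was low in METTL3 2, with 124 CPM against 201 CPM in the next library (ratio 0.831). Ube2g2 was low in HFD+STZ 1, with 42.6 CPM against 70.4 CPM in the next library (ratio 0.886). Atf3 was high in HFD+STZ 1, with 8.60 CPM against 3.47 CPM in the next library (ratio 0.893).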

How the results depend on the processing

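The Herpud1 log2 fold change was positive against Chow under all 24 alternatives in both comparisons. It passed the threshold under 18 of 24 in METTL3 over Chow and under 8 of 24 in HFD+STZ over Chow. The number of the 10 genes past the threshold in HFD+STZ over Chow was 1 with DESeq2, nuclear genes only, no filter, the stricter filter or without Chow 3 and HFD+STZ 1 together, and 3 with voom, against 0 as reported. In METTL3 over Chow it was 2 with DESeq2 or no filter, 4 with voom, and 0 with the replicate block or the code covariate, against 1. Leaving out a library gave 0 to 1 in both.

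Over all genes, HFD+STZ over Chow gave 25 as reported, 307 with DESeq2, 1954 with voom, 190 with no filter, 45 with the stricter filter, 0 with only the groups compared, 2 with the replicate block, 1 with the code covariate, 493 without Chow 3 and HFD+STZ 1 together, and 1 to 215 when single libraries were left out. METTL3 over HFD+STZ gave 0 as reported, 139 with DESeq2, 395 with voom, 403 without that pair and 0 to 0 without single libraries. METTL3 over Chow gave 475 as reported, 1509 with DESeq2, 3078 with voom, 747 with no filter, 54 with only the groups compared, 5 with the replicate block, 1 with the code covariate, 152 with GC offsets, 1258 without that pair and 34 to 750 without single libraries. For the 122 pathway genes, HFD+STZ over Chow gave 5 with DESeq2, 14 with voom, 4 with no filter, 6 without that pair, 0 with only the groups compared, the replicate block or the code covariate, and 0 to 5 without single libraries, against 1. METTL3 over HFD+STZ gave 1 with DESeq2, voom or without that pair, against 0. METTL3 over Chow gave 16 with DESeq2, 32 with voom, 10 with no filter, 12 without that pair, 1 with only the groups compared or GC offsets, 0 with the replicate block or the code covariate, and 0 to 7 without single libraries, against 5.

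Reversed signs were confined, among the alternatives run, to values that did not pass the threshold. In HFD+STZ over Chow these were Atf4 (0.013 with voom, 0.066 with the code covariate, 0.13 without the pair, -0.26 to 0.21 without single libraries), Sesn2 (0.022 with the code covariate, 0.0066 with GC offsets, -0.30 to 0.23), Trib3 (-0.012 with the block, -0.039 to 0.29), Asns (-0.011 to 0.65) and Mettl3 (-0.28 with voom, -0.38 without the pair, -0.26 to 0.29). In METTL3 over HFD+STZ they were Xbp1 (0.032 with voom, 0.056 without the pair, -0.19 to 0.058), Ddit3 (0.035 in codes 25 to 33, 0.089 without the pair, -0.42 to 0.093), Herpud1 (-0.28 to 0.062), Psat1 (-0.12 to 0.64) and Sesn2 (-0.14 to 0.36). In METTL3 over Chow they were Chac1 (-0.36 with voom, -0.26 with the code covariate, -0.016 without the pair, -0.25 to 1.48) and Sesn2 (-0.090 without the pair, -0.16 to 0.44). The causes were not tested.

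Same-numbered libraries had correlations of -0.23 to 0.16 over 10 pairs, so the numbers do not show a pairing. The intervals cover counting error together with the spread between libraries, which were not separated.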
